A study of Mus musculus with 3 samples.

Results

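The 27 genes described here make cholesterol or handle it inside the cell. They are 5 enzymes of the mevalonate pathway (Acat2, Hmgcs1, Mvk, Pmvk, Mvd), 3 of the isoprenoid steps (Idi1, Fdps, Ggps1) and 3 that form squalene and close it into the sterol ring (Fdft1, Sqle, Lss). A further 9 act in the late sterol steps (Cyp51, Tm7sf2, Lbr, Msmo1, Nsdhl, Hsd17b7, Ebp, Sc5d, Dhcr7). The other members are 3 regulators (Srebf2, Scap, Insig1) and 4 genes of cholesterol transport and storage (Stard4, Npc1, Npc2, Soat1). They were taken by symbol from the 32285 genes of the count matrices, all 27 were found, and all 27 passed the filter on low counts.

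Animal cells build cholesterol from acetyl-CoA in the cytosol and endoplasmic reticulum. The transcription factor SREBP2, product of Srebf2, is held in the endoplasmic reticulum by SCAP and INSIG proteins while sterols are plentiful; when sterols fall it is carried to the Golgi, cut, and switches on most of the pathway. Lipoprotein cholesterol reaches the cell through lysosomes, from which NPC2 and NPC1 export it. In the mouse embryo, visceral endoderm takes up maternal nutrients and secretes lipoproteins to the epiblast, and a missing step of cholesterol synthesis or lipoprotein secretion can stop development.

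The cells came from mouse blastoids, aggregates of stem cells that imitate the blastocyst, made from E14 embryonic stem cells named mNrESCs in the labels. Before aggregation the stem cells were kept with 10 µM T0901317, a synthetic agonist of the LXR sterol receptors, and 1000 U/mL LIF; the labels name T0901317 only for that stem cell medium. About 5 cells per microwell were seeded for 24 h in rhFGF4 (12.5 ng/mL), heparin (0.5 µg/mL), CHIR99021 (3 µM) and Y-27632 (2 µM). Y-27632 was then left out, and BMP4 (5 ng/mL) and A83-01 (0.5 µM) were added, until aggregates were picked by hand on day 5 and digested for 30 min. The 3 libraries, labelled Type_I, Type_II and Type_III, share all of this, with 1 library of each type; the labels do not say how the types differ. There is no untreated library and no embryo among them.

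Barcodes under 10000 UMIs, or with more than 20% of UMIs from mitochondrial genes, were left out. There remained 1405, 1992 and 272 barcodes in Type_I, Type_II and Type_III, with median depths of 52224, 41491 and 71540 UMIs. Each kept barcode was given a state from summed marker levels in CPM, the UMIs of a gene scaled to a fixed total per sum or barcode. Visceral endoderm needed 1000 CPM of Ttr, Rbp4, Apoa1 and Apoa2. Of the rest, early primitive endoderm (early PrE) needed 100 CPM of Gata6, Sox17 and Gata4, trophectoderm (TE) 800 CPM of Krt8, Krt18 and Krt19, and epiblast 150 CPM of Pou5f1. This gave 1025 visceral endoderm, 692 early PrE, 558 TE and 1054 epiblast barcodes; 132, 193 and 15 barcodes of the 3 libraries had no state. The smallest sum is visceral endoderm in Type_III, with 19 barcodes.

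Markers that the rule did not use followed the states. Summed levels of 10 visceral endoderm genes were 6892 to 8711 CPM in visceral endoderm and 31.9 to 103 CPM in epiblast, and 9 epiblast genes summed to 5104 to 5401 CPM in epiblast and 432 to 574 CPM in visceral endoderm. The states were not exclusive: 85.8 to 94.7% of visceral endoderm barcodes also met the TE limit, and 16.2%, 17.6% and 37.8% of early PrE barcodes in the 3 libraries also met the epiblast limit. Of early PrE barcodes, 51.7%, 48.4% and 33.3% also met the TE limit. Of TE barcodes, 7.21%, 10.4% and 13.9% also met the epiblast limit. The 12 TE genes summed to 1202 to 1512 CPM in TE. Their defining members Elf5 and Cdx2 were low there, with Elf5 at 0.475 to 1.01 CPM and Cdx2 at 4.82 to 12.5 CPM against 10.9 to 18.9 CPM in visceral endoderm. Parietal endoderm genes reached 835 to 1041 CPM in early PrE. Of the 272 kept Type_III barcodes, 161 (59.2%) carry a barcode also deposited in another library, against 4.13% in Type_I and 1.31% in Type_II. Counts and medians of endoderm against epiblast and TE are also given without them, as are the Type_III medians in epiblast and early PrE.

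All 27 genes have a place in the reference annotation, GRCm38. In that annotation lie Hmgcs1 (ENSMUSG00000093930) at chr13:119690379-119708260, Insig1 (ENSMUSG00000045294) at chr5:28071363-28078662, Cyp51 (ENSMUSG00000001467) at chr5:4081145-4104746, Sc5d (ENSMUSG00000032018) at chr9:42251595-42264256, Lbr (ENSMUSG00000004880) at chr1:181815335-181843046, Ebp (ENSMUSG00000031168) at chrX:8185329-8193512, Npc2 (ENSMUSG00000021242) at chr12:84754562-84773152 and Soat1 (ENSMUSG00000026600) at chr1:156424525-156474331. Hmgcs1, Fdft1, Lss, Cyp51, Lbr, Npc1 and Ggps1 overlap a gene on the opposite strand; the sources used here do not say whether counting used strand, so their levels may hold UMIs of those genes. RefSeq promoter windows of that build (GRCm38.p6) were found for 22 of them; Fdft1, Fdps, Npc1, Sqle and Stard4 are named only. Within the 250 bases before the start, the letters CCAAT, the box bound by NF-Y, a partner of SREBP2, were found on either strand in 20 of 22 members (90.9%) and in 37.5% of 27025 genes. GGGCGG, a GC box, was in 19 of 22 members (86.4%) and 35.4% of genes. TCACNCCAC, 1 spelling of the sterol regulatory element, was in 1 of 22, Hmgcs1, and in 1.22% of genes. A match is a run of letters and shows no binding. The windows of 5 genes are shown because Hmgcs1, Insig1, Cyp51 and Sc5d were high in both endoderm states, and Lbr was high in TE. Capitals mark CCAAT or its reverse ATTGG, and in Hmgcs1 also the sterol element, whose first base lies 137 bases before the start. Each window is read 5′ to 3′ on the strand of its gene.
Hmgcs1, chr13:119690101-119690350, plus strand: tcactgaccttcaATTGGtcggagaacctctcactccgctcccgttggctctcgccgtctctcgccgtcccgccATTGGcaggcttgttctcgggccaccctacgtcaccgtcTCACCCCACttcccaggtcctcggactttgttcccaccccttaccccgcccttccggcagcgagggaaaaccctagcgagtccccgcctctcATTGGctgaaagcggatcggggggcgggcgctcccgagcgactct
Insig1, chr5:28071162-28071411, plus strand: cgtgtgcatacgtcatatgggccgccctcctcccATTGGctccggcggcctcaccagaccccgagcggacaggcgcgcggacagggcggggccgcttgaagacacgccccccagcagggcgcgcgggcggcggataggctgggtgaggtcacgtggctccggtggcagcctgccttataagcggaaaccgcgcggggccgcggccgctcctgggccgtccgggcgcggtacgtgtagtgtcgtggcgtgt
Cyp51, chr5:4104698-4104947, minus strand: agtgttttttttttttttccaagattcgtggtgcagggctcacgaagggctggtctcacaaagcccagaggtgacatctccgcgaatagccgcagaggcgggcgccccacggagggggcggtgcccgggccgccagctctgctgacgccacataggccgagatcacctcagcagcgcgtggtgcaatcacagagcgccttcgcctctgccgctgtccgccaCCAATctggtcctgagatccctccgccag
Sc5d, chr9:42264301-42264550, minus strand: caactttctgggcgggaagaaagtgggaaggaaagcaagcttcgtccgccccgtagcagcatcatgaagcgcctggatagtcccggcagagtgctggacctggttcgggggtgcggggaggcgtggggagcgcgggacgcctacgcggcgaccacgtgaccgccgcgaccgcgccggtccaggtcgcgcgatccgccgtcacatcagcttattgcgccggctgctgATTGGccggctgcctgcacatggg
Lbr, chr1:181842402-181842651, minus strand: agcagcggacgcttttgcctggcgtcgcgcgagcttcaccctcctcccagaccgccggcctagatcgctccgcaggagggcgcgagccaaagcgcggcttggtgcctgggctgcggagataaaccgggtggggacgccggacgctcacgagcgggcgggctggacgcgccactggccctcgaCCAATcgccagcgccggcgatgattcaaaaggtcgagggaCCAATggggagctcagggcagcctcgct
Hmgcs1 holds 3 such boxes, Lbr 2, and Insig1, Cyp51 and Sc5d 1 each, although Lbr was highest in TE. The Lbr window lies inside the annotated gene, whose longest transcript starts further upstream than the RefSeq start used. Acat2 and Scap hold none, although both were higher in visceral endoderm than in epiblast.

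Together the 27 genes took 3224, 3511 and 3531 CPM of the UMIs of visceral endoderm in Type_I, Type_II and Type_III, the order in which values are given from here on. Early PrE stood at 2981, 3109 and 3320 CPM, TE at 1898, 2122 and 1868 CPM, and epiblast at 1331, 1484 and 1102 CPM. In each library the order was visceral endoderm, early PrE, TE, epiblast, and the lowest endoderm value lay above the highest TE value. Visceral endoderm and early PrE overlap across libraries, TE and epiblast do not. By gene, the highest state was visceral endoderm for 20, 20 and 14 members, and epiblast for none. The lowest state was epiblast for 21, 23 and 24 of 27. CPM is a share of a cell's UMIs, so a change in a few abundant genes or in RNA per cell cannot be told apart from a change in these genes alone.

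**Figure D1:**
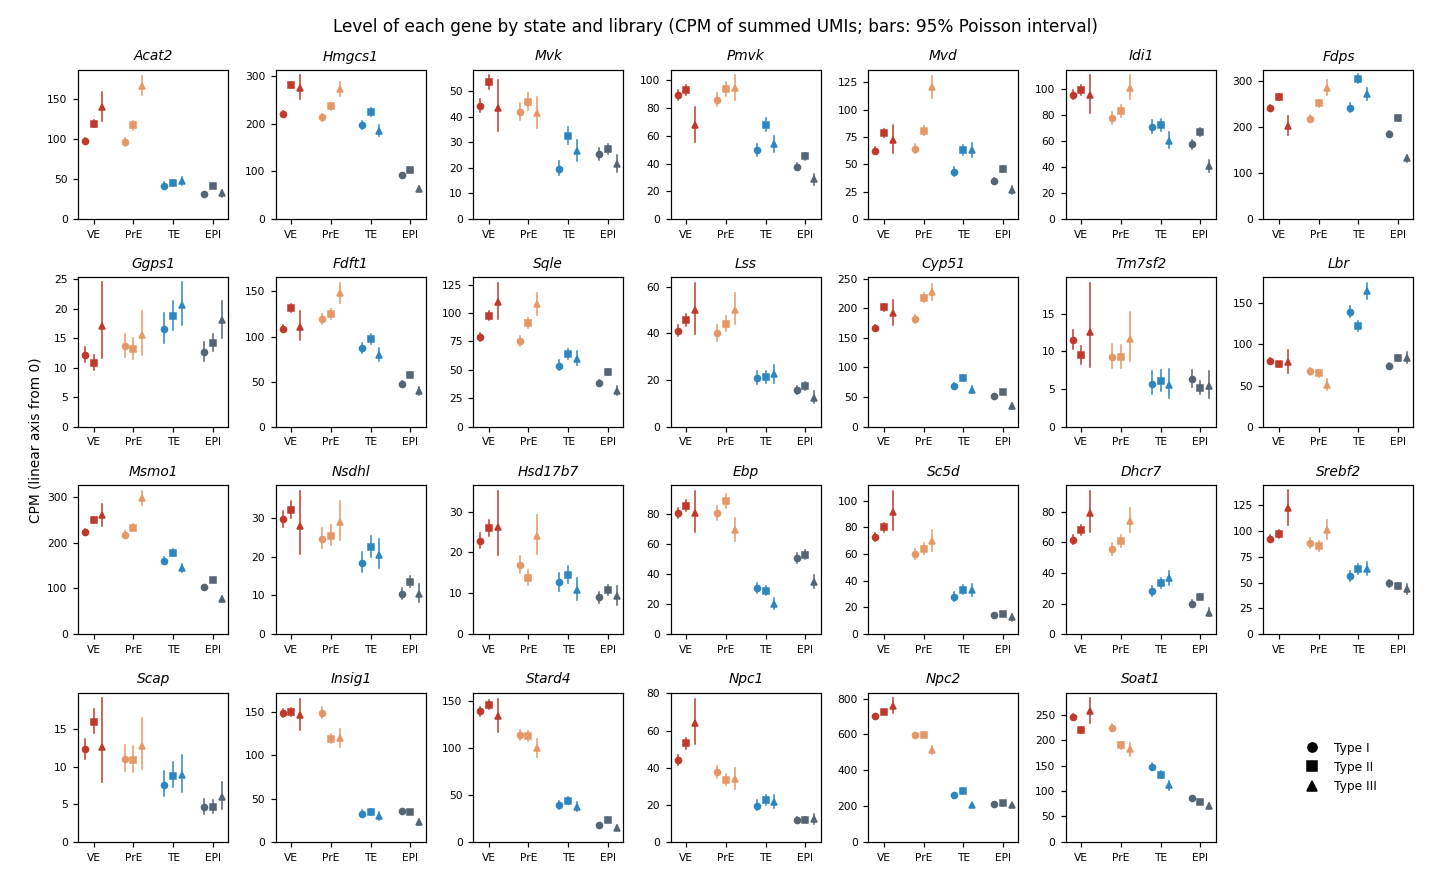
Level of each of the 27 genes in CPM (linear axes from 0) for visceral endoderm (VE), early PrE (PrE), TE and epiblast (EPI); symbols are the 3 libraries and bars are 95% Poisson intervals, which cover counting error only. Stard4, Sc5d, Insig1 and Npc2 stand high in both endoderm states, whereas Lbr peaks in TE at 122 to 165 CPM and Ebp is lowest there at 20.1 to 30.7 CPM.

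States were tested with edgeR's quasi-likelihood test on UMI counts summed per library and state, with library as a block, over 13616 genes. Adjusted p-values are Benjamini-Hochberg values over all of these, and a call is one under 0.05. Fold changes are on the log2 scale after TMM scaling, which sets the median gene near 0; ± is the standard error. The 3 libraries are 1 of each type and nothing in the labels says that they came from separate cultures, so a p-value here measures how alike a difference between states was in 3 libraries. Counts come from the transcript end, so levels are compared between states and never between genes.

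In visceral endoderm 24 of 27 members were higher than in epiblast and 1 was lower (38.0% of all genes tested were higher and 37.7% lower). Of these, 18 were at least 2-fold higher, against 20.6% of all genes. The median member was 1.18 higher on the log2 scale, where the median of all genes was 0.00. Early PrE against epiblast gave 25 higher and 1 lower (all genes 36.1% and 34.5%), 16 of them 2-fold or more (17.9%) and none 2-fold lower (15.4%), with a member median of 1.12. Endoderm as a whole therefore carried most of the pathway at higher levels than epiblast, from the first thiolase step to esterification. The exceptions were Fdps, Ggps1 and Lbr, described with their groups. With barcodes thinned to 10000 UMIs, visceral endoderm had 24 higher and 0 lower, 15 at 2-fold or more, with a median of 1.05. Early PrE then had 21 higher and 1 lower, 12 at 2-fold or more, with a median of 0.90 (all genes 0.02). The early PrE calls of Idi1, Tm7sf2, Fdps and Hsd17b7 were lost. Without the barcodes shared between libraries, which leaves Type_III out of visceral endoderm, visceral endoderm had 24 higher and 1 lower against epiblast. There 13 members in place of 18 were 2-fold or more higher, and the median was 0.98. Early PrE then had 21 higher and 2 lower, with 10 in place of 16 at 2-fold or more higher and a median of 0.78. The median of all genes was -0.14 in both. The early PrE calls of Idi1 (0.08), Tm7sf2 (0.33), Hsd17b7 (0.28) and Fdps (-0.08) were lost.

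**Figure D2:**
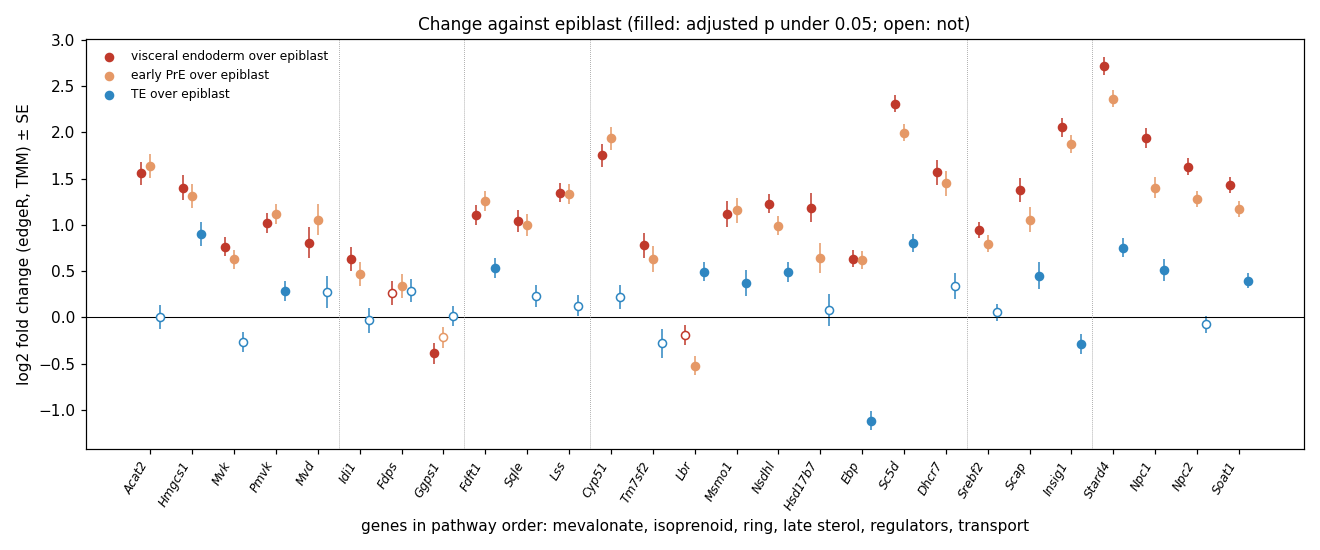
log2 fold change over epiblast ± SE for the 27 genes in pathway order, from edgeR with TMM scaling; filled points have an adjusted p under 0.05. Visceral endoderm and early PrE run close together from Acat2 at 1.56 and 1.64 to Soat1 at 1.43 and 1.17, while the TE points scatter around 0 between -1.12 (Ebp) and 0.90 (Hmgcs1).

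The mevalonate enzymes turn acetyl-CoA into the 5-carbon building block of isoprenoids, and all 5 were higher in both endoderm states than in epiblast. Hmgcs1, cytosolic HMG-CoA synthase, stood at 221, 281 and 276 CPM in visceral endoderm and 213, 237 and 273 CPM in early PrE. In TE it was 197, 224 and 186 CPM, and in epiblast 91.5, 102 and 63.7 CPM. Epiblast was lowest in each library, and no other state overlaps it. TE lay below both endoderm states in each library, although their ranges over the libraries overlap. Both endoderm states were called higher than TE, visceral endoderm in 19 of 19 processing settings and early PrE in 18 of 20. With plain totals in place of TMM, early PrE over TE was 0.25 and not called. The change over epiblast was 1.40 ± 0.130 in visceral endoderm (adjusted p = 1.23e-07), 1.32 ± 0.129 in early PrE (adjusted p = 3.1e-07) and 0.90 ± 0.128 in TE (adjusted p = 2.54e-05).

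Acat2, the cytosolic thiolase that opens the pathway, behaved differently in TE. It was 97.8, 119 and 139.6 CPM in visceral endoderm, 96.0, 117 and 166 CPM in early PrE, 41.6, 44.3 and 47.1 CPM in TE and 31.0, 41.2 and 31.8 CPM in epiblast. The endoderm values lie apart from the rest by more than 2-fold, with 1.56 ± 0.126 over epiblast (adjusted p = 2.61e-08), while TE differed from epiblast by 0.00 ± 0.131 (adjusted p = 0.984). About 15.2% of the windows at the end of Acat2 transcripts also occur in Acat3, so its level may be affected, in a direction not known here. Mvk and Pmvk, the mevalonate kinases, ran from 43.5 to 53.6 CPM and from 67.5 to 93.1 CPM in visceral endoderm against 21.4 to 27.4 CPM and 28.5 to 45.2 CPM in epiblast, changes of 0.76 and 1.02. Mvd, the decarboxylase, was 64.1, 80.9 and 121 CPM in early PrE against 34.8, 45.5 and 26.4 CPM in epiblast, furthest apart in Type_III. Its change over epiblast was 1.05 ± 0.169 in early PrE and 0.81 ± 0.170 in visceral endoderm.

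The isoprenoid steps were the weakest group. Idi1, which isomerises the 5-carbon unit, was 95.8, 99.2 and 95.6 CPM in visceral endoderm and 57.5, 66.7 and 40.8 CPM in epiblast, a change of 0.63 ± 0.131 (adjusted p = 0.000493). Fdps makes farnesyl diphosphate, the branch point toward sterols, prenylated proteins, dolichol and ubiquinone. It was 242, 266 and 203 CPM in visceral endoderm, 242, 306 and 273 CPM in TE and 185, 219 and 132 CPM in epiblast, and visceral endoderm and epiblast overlap. Its change of 0.26 ± 0.129 in visceral endoderm did not pass (adjusted p = 0.08). In early PrE 0.34 ± 0.128 did (adjusted p = 0.027), but without Type_III it was 0.07, not called, and without shared barcodes -0.08. Levels of Fdps and Idi1 are uncertain, since 80.2% and 57.1% of the windows at their transcript ends also occur in other annotated genes.

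Ggps1 makes geranylgeranyl diphosphate for protein prenylation and stands off the route to sterol. It was the only member called lower in visceral endoderm than in epiblast, at 12.2, 10.8 and 17.2 CPM against 12.7, 14.3 and 18.04 CPM. The difference is small and the ranges overlap, with a change of -0.39 ± 0.111 (adjusted p = 0.00517); without Type_II it was -0.26 and with plain totals in place of TMM -0.23, neither of them called. In TE, Ggps1 was 16.6, 18.8 and 20.7 CPM, its highest state in each library. About 15.6% of the windows at the end of Ggps1 transcripts also occur in Gm27392 or Gm5630, so its level may be affected, in a direction not known here. As a share of the summed CPM of all 27 genes, the isoprenoid steps held 10.8%, 10.7% and 8.93% in visceral endoderm, 17.4%, 18.7% and 18.9% in TE and 19.2%, 20.2% and 17.3% in epiblast.

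All 3 genes that commit farnesyl units to sterol were higher in both endoderm states than in epiblast. Fdft1, squalene synthase, was 108.5, 131 and 111 CPM in visceral endoderm, 119.7, 125 and 148 CPM in early PrE, 87.2, 97.0 and 80.0 CPM in TE and 47.7, 57.6 and 39.3 CPM in epiblast. These 4 ranges order without overlap except between the endoderm states, and TE passed as well, at 0.54 ± 0.110 (adjusted p = 0.000661). Sqle, squalene epoxidase and a slow step of the pathway, was 78.7, 97.7 and 109.9 CPM in visceral endoderm against 38.6, 48.2 and 31.6 CPM in epiblast, a change of 1.04 ± 0.122 (adjusted p = 1.62e-06). Lss, which closes squalene epoxide into lanosterol, was higher in endoderm, and in TE its call depended on the scaling. It was 41.1, 45.6 and 49.8 CPM in visceral endoderm, 20.8, 21.2 and 22.3 CPM in TE and 15.6, 17.4 and 12.4 CPM in epiblast, with 1.35 ± 0.106 in visceral endoderm (adjusted p = 1.77e-08) and 0.13 ± 0.114 in TE (adjusted p = 0.356; 0.45 with plain totals, adjusted p = 0.00378 by the same edgeR test).

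Among the late sterol steps 8 of 9 were higher in visceral endoderm than in epiblast, and the same number in early PrE. Sc5d, the desaturase that acts just before the last reductase, rose most. It was 72.6, 79.9 and 91.6 CPM in visceral endoderm, 59.9, 63.9 and 69.5 CPM in early PrE, 27.8, 33.4 and 33.1 CPM in TE and 14.2, 15.3 and 12.5 CPM in epiblast. These 4 ranges do not overlap. The change over epiblast was 2.31 ± 0.0890 in visceral endoderm (adjusted p = 7.73e-12), 2.00 ± 0.0889 in early PrE (adjusted p = 5.34e-11) and 0.80 ± 0.0939 in TE (adjusted p = 3.55e-06). Dhcr7, the last-step reductase whose loss causes Smith-Lemli-Opitz syndrome in humans, was 61.5, 68.1 and 79.0 CPM against 19.998, 24.4 and 14.1 CPM, a change of 1.57 ± 0.136 (adjusted p = 5.36e-08).

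Cyp51, the lanosterol demethylase, had its highest level in early PrE, at 182, 218 and 228 CPM, with 166, 201 and 192 CPM in visceral endoderm. TE held 68.9, 82.4 and 62.3 CPM and epiblast 51.4, 58.7 and 34.6 CPM. The endoderm states overlap each other and lie well clear of the rest, at 1.75 ± 0.126 for visceral endoderm (adjusted p = 6.36e-09); TE reached 0.22 ± 0.127 (adjusted p = 0.149). The C4-demethylating enzymes Msmo1, Nsdhl and Hsd17b7 were 1.12, 1.23 and 1.18 higher in visceral endoderm than in epiblast. Hsd17b7 was also 0.65 higher in early PrE, but -0.076 with barcodes thinned to 10000 UMIs, so its direction changed with thinning. Msmo1 and Nsdhl were also higher in TE than in epiblast, by 0.37 and 0.49.

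Sterol C14 reduction can be done by either of a pair of proteins, TM7SF2 and the lamin B receptor, and their genes went different ways. Tm7sf2 was 11.5, 9.49 and 12.6 CPM in visceral endoderm, 9.24, 9.23 and 11.6 CPM in early PrE, 5.70, 6.00 and 5.46 CPM in TE and 6.31, 5.10 and 5.39 CPM in epiblast. Lbr, whose product also ties chromatin to the nuclear envelope, was 80.1, 75.7 and 78.4 CPM in visceral endoderm, 67.5, 64.7 and 51.0 CPM in early PrE, 140.1, 122 and 165 CPM in TE and 73.4, 83.4 and 83.5 CPM in epiblast. Its TE values lie above those of the other states in each library, and early PrE values below. Lbr was 0.50 ± 0.104 higher in TE than in epiblast (adjusted p = 0.000812) and lower in early PrE, at -0.52 ± 0.108 (adjusted p = 0.000524). Early PrE against TE gave -1.02 ± 0.108 (adjusted p = 1.17e-06), while Tm7sf2 gave 0.91 ± 0.152 (adjusted p = 0.00011). The ends of Tm7sf2 overlap Vps51 on the same strand, where 6.30% of windows match.

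Ebp, the sterol isomerase, fell furthest among the members called lower. It was 81.1, 85.7 and 81.3 CPM in visceral endoderm, 80.8, 88.8 and 69.7 CPM in early PrE, 50.7, 53.1 and 35.0 CPM in epiblast and 30.7, 29.1 and 20.1 CPM in TE. TE lay below epiblast in every library, and endoderm above both. The change was -1.12 ± 0.102 in TE over epiblast (adjusted p = 2.59e-07), 0.63 ± 0.0947 in visceral endoderm over epiblast (adjusted p = 2.1e-05) and 1.75 ± 0.103 in visceral endoderm over TE (adjusted p = 1.18e-09). With plain totals the fall in TE was -0.80 and still called.

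All 3 regulators were higher in endoderm than in epiblast. Insig1 encodes the endoplasmic reticulum anchor of the SCAP and SREBP complex and is itself an SREBP target. It was 148.9, 149.9 and 147 CPM in visceral endoderm, 149.4, 119 and 120.02 CPM in early PrE, 32.8, 34.4 and 29.4 CPM in TE and 35.7, 34.9 and 22.9 CPM in epiblast. The values fall into a high endoderm pair and a low pair, with no overlap between them. Visceral endoderm was 2.05 ± 0.102 above epiblast (adjusted p = 1.07e-10) and 2.35 ± 0.106 above TE (adjusted p = 6.95e-11). TE against epiblast gave -0.29 ± 0.109 (adjusted p = 0.0314), but 0.03 with plain totals, and the call was lost without Type_I (-0.24) or Type_II (-0.26), so no direction holds for Insig1 in TE. Srebf2 itself moved less, at 92.4, 97.3 and 122 CPM in visceral endoderm against 49.1, 46.7 and 43.4 CPM in epiblast, 0.95 ± 0.0885 (adjusted p = 1.32e-07), and 56.3, 63.0 and 63.3 CPM in TE, 0.05 ± 0.0893 (adjusted p = 0.631). Scap was low throughout, at 12.3, 15.96 and 12.6 CPM in visceral endoderm and 4.63, 4.65 and 5.92 CPM in epiblast, a change of 1.37 ± 0.131 (adjusted p = 1.65e-07).

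The 4 transport and storage genes were all higher in both endoderm states than in epiblast, and Stard4 had the largest change of the 27. Stard4 encodes a cytosolic sterol carrier. It was 138.5, 146 and 133 CPM in visceral endoderm, 113, 112 and 99.5 CPM in early PrE, 39.0, 43.4 and 37.1 CPM in TE and 17.6, 23.4 and 14.7 CPM in epiblast. The 4 ranges do not overlap. Its change over epiblast was 2.71 ± 0.0944 in visceral endoderm, a 6.56-fold level (adjusted p = 2.83e-12), 2.36 ± 0.0936 in early PrE (adjusted p = 1.55e-11) and 0.75 ± 0.0980 in TE (adjusted p = 1.03e-05).

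Npc1 and Npc2 encode the lysosomal membrane exporter and the soluble carrier of cholesterol, and loss of either causes Niemann-Pick type C disease in humans. Npc1 was 44.1, 53.0 and 64.1 CPM in visceral endoderm, 37.5, 33.3 and 33.8 CPM in early PrE, 19.48, 22.6 and 21.5 CPM in TE and 11.8, 11.9 and 12.1 CPM in epiblast, again without overlap. Npc2 was 700.4, 726 and 761 CPM in visceral endoderm, 595, 598 and 511 CPM in early PrE, 259, 284 and 207 CPM in TE and 209, 216 and 206 CPM in epiblast. Over epiblast, visceral endoderm was 1.94 ± 0.108 higher for Npc1 (adjusted p = 3.6e-10) and 1.63 ± 0.0883 for Npc2 (adjusted p = 2.84e-10). In TE, Npc1 was 0.51 ± 0.116 higher (adjusted p = 0.00153), while Npc2 gave -0.08 (adjusted p = 0.47) and 0.25 with plain totals, so its direction there depends on the scaling. Soat1, which esterifies cholesterol for storage, was 245, 220.1 and 258 CPM in visceral endoderm and 86.9, 79.3 and 70.8 CPM in epiblast, a change of 1.43 ± 0.0866 (adjusted p = 9.62e-10).

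As a share of the summed CPM of the 27 genes, transport and storage took 35.0%, 32.6% and 34.5% in visceral endoderm, against 24.5%, 22.7% and 20.1% in TE and 24.4%, 22.3% and 27.6% in epiblast. The late sterol steps kept between 23.3% and 26.7% in all 12 sums of library and state. The median change of visceral endoderm over epiblast was 1.79 for transport and storage and 0.26 for the isoprenoid steps; the difference between these groups was not tested.

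TE against epiblast was a mixed comparison. Of the 27 members 11 were higher and 2 lower (all genes 28.0% and 30.2%), none was 2-fold higher (10.8% of all genes) and 1, Ebp, was 2-fold lower (10.3%). The member median was 0.27. The higher genes were Hmgcs1, Sc5d, Stard4, Fdft1, Npc1, Lbr, Nsdhl, Scap, Soat1, Msmo1 and Pmvk, spread over 5 of the 6 groups, and the lower ones Ebp and Insig1. This comparison depends on scaling more than the others. With plain totals the median of all genes moved from -0.02 to 0.30, 21 members were higher (3 of them by 2-fold) and 1 lower, none by 2-fold, and the member median was 0.60. The genes called higher then included Acat2 (0.33), Cyp51 (0.54), Srebf2 (0.38), Lss (0.45) and Fdps (0.61), which TMM left uncalled; the calls over all genes went from 3807 higher and 4111 lower to 6280 and 2254. Without Type_II only 7 members were higher and without Type_I 9, with Scap and Msmo1 lost in both; Npc1 was also lost without Type_II, and Pmvk without Type_II or Type_III. Over all 20 settings, the reported one included, Pmvk was called in 7, Insig1 in 14, Msmo1 in 16, Scap in 17 and Npc1 in 18. Hmgcs1, Sc5d, Stard4, Fdft1, Lbr, Nsdhl, Soat1 and Ebp were called in each of the 20. Beside these values, the dissociation genes summed to 623, 659.97 and 723 CPM in TE against 358, 344 and 331 CPM in epiblast, and their part in the result was not tested.

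Against TE, most members were again higher in endoderm. Visceral endoderm was higher than TE for 24 members and lower for 2 (all genes 33.0% and 32.6%), with 14 of them 2-fold or more higher (15.8%) and a median of 1.03. Early PrE was higher than TE for 24 and lower for 1 (30.3% and 29.1%), with 9 at 2-fold or more (13.1%), 1 lower by as much (Lbr; 11.4%) and a median of 0.78. The members lower in visceral endoderm than in TE were Ggps1 (-0.41) and Lbr (-0.69); the call for Ggps1 was lost without Type_II. Fdps was not called in either, at -0.03 ± 0.129 and 0.05 ± 0.128. With plain totals the calls over all genes were 3696 higher and 5535 lower for visceral endoderm over TE, in place of 4493 and 4438, and 3265 and 5165 for early PrE over TE, in place of 4121 and 3961, while 23 members were higher and 2 lower in each. Without the barcodes shared between libraries, visceral endoderm over TE had 24 higher and 2 lower, with a median of 0.81 (all genes -0.11). Early PrE over TE then had 21 higher and 2 lower, with a median of 0.61 (all genes -0.12). These comparisons with TE share their sums with those against epiblast and do not add independent evidence. Visceral endoderm had the highest mitochondrial share, with medians of 4.85%, 5.84% and 6.16% against 3.47%, 3.69% and 3.84% in TE and 3.60%, 4.04% and 4.24% in epiblast, and with a 10% mitochondrial limit the counts over epiblast stayed at 24 higher and 1 lower.

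Visceral endoderm and early PrE were much closer to each other. Visceral endoderm was higher for 7 members and lower for none (all genes 11.8% and 10.9%), none of them by 2-fold (2.97% and 3.53%), with a median of 0.14. The 7 were all 4 transport and storage genes and 3 late sterol enzymes: Npc1 (0.54 ± 0.100, adjusted p = 0.00143), Npc2 (0.35 ± 0.0859, adjusted p = 0.00821), Stard4 (0.35 ± 0.0851, adjusted p = 0.00814), Soat1 (0.26 ± 0.0845, adjusted p = 0.0392), Hsd17b7 (0.54 ± 0.154, adjusted p = 0.0208), Lbr (0.33 ± 0.111, adjusted p = 0.0456) and Sc5d (0.31 ± 0.0811, adjusted p = 0.0121). None of the mevalonate, isoprenoid, ring-forming or regulatory genes passed. The calls rest on few libraries: without Type_II no member was called, without Type_I 2 were (Npc1 and Npc2) and without Type_III 9. Over all genes, 1601 higher and 1486 lower became 429 and 299 without Type_II. Both states share markers, with early PrE genes at 6684 to 6925 CPM in visceral endoderm and 8156 to 9622 CPM in early PrE. With the barcodes of visceral endoderm, early PrE and TE that met the epiblast limit left out, 4 members were called. Over 19 settings Npc1 was called in 18, Npc2 and Hsd17b7 in 16, Sc5d and Stard4 in 15, Soat1 in 10 and Lbr in 6.

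Within early PrE the level differed by epiblast marker. Barcodes that also met the epiblast limit held 2426, 2358 and 2928 CPM of the 27 genes, and those below it 3065, 3248 and 3524 CPM. For Insig1 the values were 71.1, 65.2 and 99.4 CPM against 161, 129 and 131 CPM. The first set lay lower in each library for both measures. It was also shallower, at median depths of 41004.5, 33497.5 and 74829 UMIs against 51420, 39194 and 83757.5 UMIs. The part of depth in the difference was not tested. Doublets of early PrE and epiblast cells and cells between the states cannot be told apart here.

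In Type_I and Type_II the pathway was spread over the barcodes of a state and not set by a few. Per barcode, the median summed level was 3000, 3324 and 3327 CPM in visceral endoderm, and the span from the 10th to the 90th percentile was 1698 to 5037 CPM in Type_I and 1933 to 5169 CPM in Type_II. Epiblast medians were 1116, 1248 and 897 CPM, with 652 to 2134 CPM in Type_I and 696 to 2393 CPM in Type_II. The distributions overlap: in Type_I, 91.7% of epiblast and 23.9% of visceral endoderm barcodes lay at or below 2200 CPM. Early PrE in Type_III was the widest, from 871 to 5595 CPM, a 6.43-fold span over 45 barcodes. Its median barcode held 2244 CPM, against 3320 CPM for the sum. Deep barcodes weighed heavily in Type_III. Without those above 100000 UMIs, 30 early PrE barcodes kept 1622643 of 4490991 UMIs, and 12 of 19 visceral endoderm barcodes kept 759504 of 1747368. Early PrE over epiblast then had 23 higher and 2 lower, with 11 members in place of 16 at 2-fold or more higher and a median of 0.94.

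**Figure D3:**
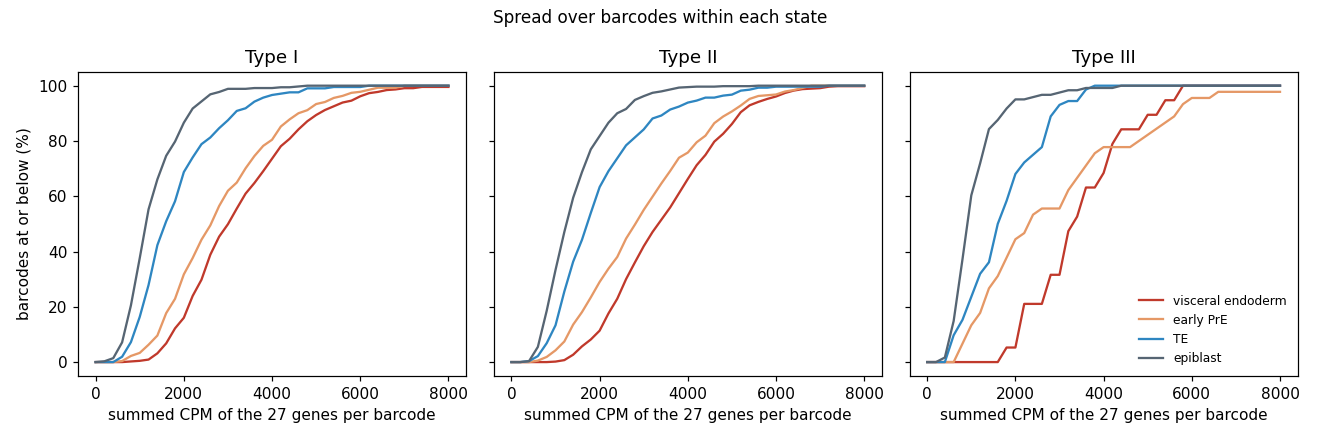
Share of barcodes (%) at or below each summed level of the 27 genes (CPM per barcode), by state, with 1 panel per library. The curves for epiblast lie to the left with medians of 897 to 1248 CPM and those for visceral endoderm to the right with medians of 3000 to 3327 CPM; the early PrE curve of Type_III is the flattest.

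At an equal depth of 10000 UMIs, Stard4 had a UMI in 69.1%, 73.4% and 78.9% of visceral endoderm barcodes and in 17.4%, 18.04% and 11.6% of epiblast barcodes (96.8%, 97.0% and 100% against 49.6%, 55.2% and 47.9% before thinning). Ttr, a secreted protein of visceral endoderm that epiblast should lack, had a UMI in 15.95%, 20.4% and 7.44% of epiblast barcodes at that depth. The levels behind these shares differ: Ttr was 2480, 2874 and 2928 CPM in visceral endoderm and 15.1, 21.8 and 4.44 CPM in epiblast, whereas Stard4 was 138.5, 146 and 133 CPM and 17.6, 23.4 and 14.7 CPM. Epiblast thus held a far smaller part of the visceral endoderm level for Ttr than for Stard4. Ttr is among the genes whose level assigned barcodes to visceral endoderm, so its low epiblast level is partly fixed by that rule. The comparison therefore cannot show the part of free RNA in the Stard4 share, which was not tested. Insig1 was found in 67.0%, 68.2% and 73.7% of visceral endoderm and in 30.2%, 24.6% and 27.3% of epiblast barcodes. Median depths were 54589, 40808 and 92031 UMIs in visceral endoderm and 57747, 46588.5 and 59991 UMIs in epiblast.

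Across barcodes of a state, the pair that varied most alike was Hmgcs1 and Msmo1 in all 4 states. Pearson's r of log2(CPM + 10), centred by library, was 0.68 in visceral endoderm (1025 barcodes), 0.67 in early PrE (692), 0.61 in TE (558) and 0.48 in epiblast (1054). The medians over all pairs were 0.21, 0.26, 0.18 and 0.16. In both endoderm states Cyp51 completed the top trio, with r of 0.66 to Hmgcs1 and 0.65 to Msmo1 in visceral endoderm. In TE the next pairs were Sqle with Msmo1 (0.58) and Fdps with Msmo1 (0.56). In epiblast they were Idi1 with Msmo1 (0.47) and Fdps with Msmo1 (0.46). Barcodes of a library share its depth and free RNA, and each of these genes correlated with log depth, at up to 0.38, so the values are a description.

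Between the types there is 1 library each and no test. No member differed by 2-fold between Type_II and Type_I or between Type_III and Type_I in any state, among members with 50 CPM in either library. Over all such genes the shares past 2-fold were 0%, 0.0745%, 0.214% and 0% for Type_II over Type_I in visceral endoderm, early PrE, TE and epiblast. For Type_III over Type_I they were 0.802%, 1.52%, 1.16% and 0.214%. In epiblast, Type_III was below Type_I for 8 of 9 members compared, with a median of -0.49 where the median of all genes was -0.00, led by Cyp51 (-0.57), Ebp (-0.53), Hmgcs1 (-0.52) and Idi1 (-0.50). Without the barcodes shared between libraries the epiblast median was -0.75, with 1 of 9 members above 0 and an all-gene median of -0.12. In early PrE no direction holds. With all kept barcodes, 14 of 20 members were above Type_I, with a median of 0.31 against 0.05 for all genes, and values from -0.40 (Lbr) to 0.91 (Mvd). Without shared barcodes, which leaves 14 of the 45 Type_III early PrE barcodes, 0 of 19 members were above Type_I and the median was -0.77 against -0.17 for all genes. Without barcodes above 100000 UMIs the median was 0.06, with 10 of 19 above 0.

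Beside the early PrE values, Type_III early PrE held 49.4 CPM of 2C-like genes and 42.8 CPM of blood or endothelium genes, against 0 and 0.962 CPM and 6.25 and 8.08 CPM in Type_I and Type_II. Their part in the difference was not tested. Without the barcodes shared between libraries, 2 members in early PrE and 1 in epiblast were 2-fold or more lower in Type_III than in Type_I. The counting intervals cover sampling of UMIs only, and differences between aggregates of 1 type were not measured.

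**Figure D4:**
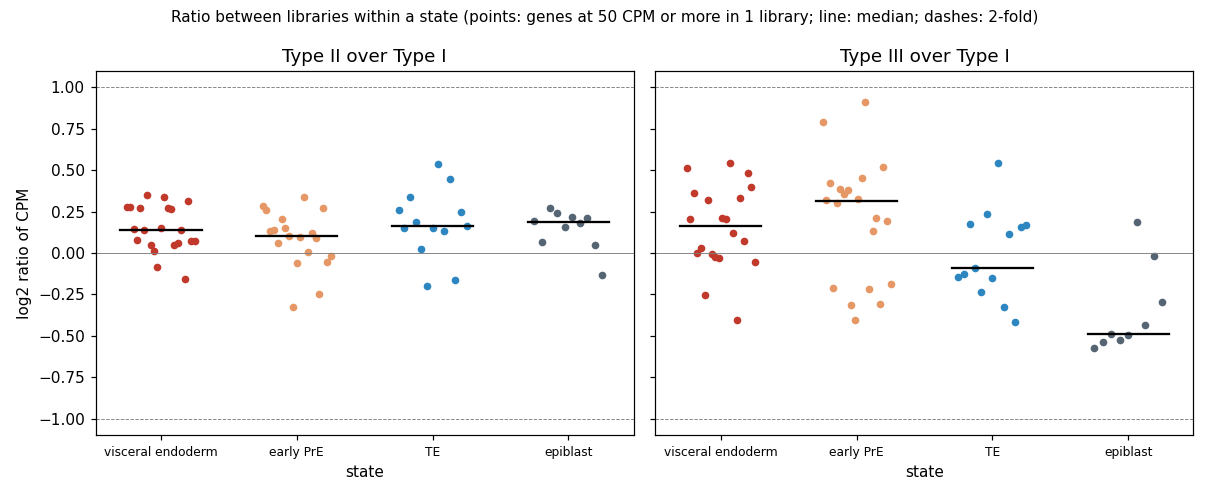
log2 ratio of CPM between libraries within each state for members with 50 CPM or more in either library (points), with the median of those members (line) and 2-fold lines (dashes). All points lie within 2-fold; the median is -0.49 for epiblast and 0.31 for early PrE in Type_III over Type_I, and without shared barcodes, not plotted, it is -0.75 and -0.77.

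Genes of related pathways are given beside the shares over all genes, which were 38.0% higher and 37.7% lower in visceral endoderm than in epiblast, 36.1% and 34.5% in early PrE, and 28.0% and 30.2% in TE. Of 33 further genes of sterol sensing, transport and uptake, 21 were higher and 3 lower in visceral endoderm than in epiblast, with a median of 0.56. In TE 16 were higher and 7 lower than in epiblast, with a median of 0.33. Gramd1b, which moves cholesterol from the plasma membrane to the endoplasmic reticulum, stood out at 61.2, 71.4 and 88.1 CPM in visceral endoderm against 3.97, 3.04 and 3.90 CPM in epiblast, a change of 4.15 ± 0.136 (adjusted p = 1.59e-12). It was also 1.70 ± 0.112 higher in visceral endoderm than in early PrE (adjusted p = 1.07e-07), a larger step than any member made. Lipa, the lysosomal acid lipase that frees cholesterol from lipoprotein esters, was 2.12 higher than in epiblast, Osbpl8 2.02 and Gramd1c 1.73.

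Of 8 tested genes of the LXR system, which senses oxysterols and drives sterol efflux and lipogenesis, 5 were higher and 2 lower in visceral endoderm than in epiblast. Apoe was 7782, 8435 and 9352 CPM in visceral endoderm against 1119, 1171 and 1018 CPM in epiblast, a change of 2.79 ± 0.109 (adjusted p = 8.5e-12), and fell by 1.13 in TE. Mylip, which marks lipoprotein receptors for degradation, was 2.96 higher and Scd1, a fatty acid desaturase, 2.18 higher. Abcg1, a sterol exporter, was 0.0727, 0.274 and 0 CPM in visceral endoderm against 2.70, 2.33 and 1.75 CPM in epiblast. It was low in both of these states. Abca1 did not pass, at 1.42, 1.92 and 1.14 CPM against 0.611, 1.01 and 1.48 CPM. The study has no library without T0901317 treatment of the stem cells, so an effect of that agonist cannot be told apart from the states.

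Fatty acid synthesis, driven by the sister factor SREBP1, gave the same count in both endoderm states. Of 9 genes, 8 were higher and 1 lower than in epiblast, with a median of 1.11 in visceral endoderm and 0.83 in early PrE. Those named by size in visceral endoderm were Me1 (2.13), Fasn (1.48), Acsl3 (1.22) and Fads1 (1.22). In TE 2 were higher and 4 lower. The prenyl transferases and processing enzymes that use isoprenoids were mixed. Of these 7, visceral endoderm had 2 higher and 3 lower, Fntb (-1.28), Rabggtb (-0.95) and Fnta (-0.58) below epiblast and Icmt (0.45) above. Genes of secretion and endoplasmic reticulum stress gave 5 higher and 2 lower of 7, led by Xbp1 (1.72) and Calr (0.84). The 10 dissociation genes gave 5 higher and 4 lower. Of 8 S phase and mitosis genes 1 was higher and 6 lower, with Mcm5 at -1.38, Mcm6 at -1.26 and Mcm2 at -0.78 while Mki67 was 0.77. The share of these groups in the pathway's difference between states was not tested.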

How the data were processed

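The authors deposited 1 matrix of UMI counts per gene and barcode for each library, written by Cell Ranger 6.0.1, as the file headers state. The submitters' processing notes name build mm10. The sources used here do not give the cell calling or whether counting used strand. Raw totals were 90126648, 106445641 and 25443474 UMIs in 6813, 9265 and 2310 barcodes for Type_I, Type_II and Type_III.

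The members and gene lists were chosen with earlier results of these data known. Barcodes were filtered and given states by the limits stated above, counts were summed per library and state (at least 10 barcodes a sum), and the 12 sums were fitted with edgeR 4.0.16 in R 4.3.3 (filterByExpr, TMM, quasi-likelihood, library as a block, 6 residual degrees of freedom, common dispersion 0.00558). DESeq2 1.42.0 was an alternative. Library is the block because sums of 1 library come from the same cells' preparation and sequencing. No doublet caller was run; instead, barcodes meeting limits of several states, or above 100000 UMIs, were left out in turn. On simulated counts for visceral endoderm over epiblast (12764 genes), 65% of genes changed 1.5-fold and 81% of those changed 2-fold were found, with 12 false calls. The simulation changed 100 genes at each size, gave all states epiblast means and used 1 dispersion for all genes. In the real comparison 5179 genes were called higher and 5127 lower of 13616. These figures therefore do not measure the power or the false calls of the tests reported. Types were compared as ratios of CPM, with no test. Outside the members, the text names the state markers and up to 4 genes of each list with the largest absolute change in visceral endoderm over epiblast; Abca1, Elf5 and Cdx2 were added after their values were seen. Windows of 50 bases from the last 500 bases of each transcript were searched in all other annotated transcripts, and over 20% matched was called uncertain. Intervals are exact at 95% and cover counting error only.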

Additional observations from a re-analysis of the deposited data

Results flagged for a closer look

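For 4 genes the plain CPM ratio between states pointed opposite ways in different libraries, each with a counting interval that excludes 0; the difference between libraries was not tested. Lbr in visceral endoderm over epiblast had a log2 ratio of 0.13 in Type_I and -0.14 in Type_II. Mvk in TE over epiblast was -0.37 in Type_I and 0.25 in Type_II. Fdps in visceral endoderm over early PrE was 0.14 in Type_I and -0.50 in Type_III, where visceral endoderm has 19 barcodes. Msmo1 in the same comparison was 0.10 in Type_II and -0.20 in Type_III. None of these 4 differences was called over the 3 libraries.

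Barcodes outside the comparisons also held the pathway. Those under 10000 UMIs that passed the mitochondrial limit numbered 4949, 6349 and 1606 in Type_I, Type_II and Type_III. They summed to 2135, 1961 and 1787 CPM of the 27 genes. This was above the TE value in Type_I and between the epiblast and TE values in Type_II and Type_III. Kept barcodes with no state (132, 193 and 15) summed to 1714, 1729 and 1825 CPM, between the epiblast and TE values of each library.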

How the results depend on the processing

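Of 2997 values of single members recomputed under 19 settings, 2842 stayed on their side of the threshold with no called value changing sign, though 74 uncalled values among them did; 94 lost the call, 56 gained one and 5 changed direction where the value or its alternative was called. The latter were Hsd17b7 with barcodes thinned to 10000 UMIs (-0.076 in early PrE over epiblast, -0.25 in early PrE over TE), Fdps in early PrE over epiblast without shared barcodes (-0.077), and Insig1 (0.028) and Npc2 (0.25) in TE over epiblast with plain totals. Where a cause is not shown by the setting itself, it was not tested.

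Counts of members called that moved by over 1.5 times come first. With plain totals in place of TMM, visceral endoderm over epiblast had 0 lower, TE over epiblast 21 higher and 1 lower, and early PrE over TE 2 lower; over all genes TE over epiblast went from 3807 higher and 4111 lower to 6280 and 2254. DESeq2 gave 2 lower and thinning 0 lower for visceral endoderm over epiblast. The sums of 1 library are paired by that library; without it as a block, TE over epiblast had 1 lower and visceral endoderm over early PrE 3 higher, and no other count of members called moved by as much. Doubled marker limits gave 2 lower in early PrE over epiblast, 2 lower in early PrE over TE and 3 higher in visceral endoderm over early PrE. The next alternatives were chosen after seeing the data. Leaving out barcodes of the other states at the epiblast limit gave 4 higher in visceral endoderm over early PrE; leaving out shared barcodes gave 2 lower in early PrE over epiblast and over TE; leaving out barcodes above 100000 UMIs gave 2 lower in early PrE over epiblast. Leaving out barcodes with 100 CPM or more of blood, endothelium or 2C-like genes moved no count of members called that far. Of the counts at 2-fold or more, early PrE over epiblast went from 16 to 10 higher without shared barcodes, early PrE over TE from 9 to 14 higher with exclusive states, TE over epiblast from 0 to 3 higher and 1 to 0 lower with plain totals, and visceral endoderm over early PrE from 0 to 1 higher after thinning. The 1 member 2-fold lower in early PrE over TE, Lbr, was not past that size without Type_III, after thinning or in 8 other settings. For the types, 1 member in early PrE was 2-fold or more higher in Type_III than in Type_I with doubled limits, and 1 without barcodes at the epiblast limit. Without shared barcodes, 2 members in early PrE and 1 in epiblast were 2-fold or more lower in Type_III. The early PrE median then turned from 0.31 to -0.77.

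Leaving out each library in turn gave 24 to 25 higher and 0 to 1 lower for visceral endoderm over epiblast, 24 to 25 and 1 to 1 for early PrE over epiblast, and 7 to 10 and 1 to 3 for TE over epiblast. It gave 23 to 24 and 1 to 2 for visceral endoderm over TE, 23 to 24 and 1 to 1 for early PrE over TE, and 0 to 9 and 0 to 0 for visceral endoderm over early PrE. States made exclusive left 7, 5 and 1 visceral endoderm barcodes, too few to fit. Over all genes, visceral endoderm over early PrE (1601 higher, 1486 lower) gave 429 and 299 without Type_II, 965 and 869 without Type_I, 881 and 835 after thinning, 1171 and 957 without the block and 1180 and 948 with doubled limits. Thinning left 10718 genes to test, with 2291 and 2615 for TE over epiblast, 3043 and 2890 for visceral endoderm over TE and 2604 and 2299 for early PrE over TE. Without Type_II, TE over epiblast gave 2564 and 2726 and early PrE over TE 3085 and 2593. Depth limits visceral endoderm in Type_III most, with 1747368 UMIs.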
